A study of Mus musculus with 17 samples.

Results

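The first day of 2i treatment was followed in 2 genotypes of the mouse embryonic stem cell line E14 at once: all 5 day 1 libraries were compared with all 4 day 0 libraries, with genotype as a block, and a change was kept where it had the same direction in WT and in the mutant. These 9 of the 17 libraries of the series were WT at day 0 (2 libraries), WT at day 1 (2), RNAPII-mut at day 0 (2) and RNAPII-mut at day 1 (3). RNAPII-mut cells, given as slow/slow in the genotype field and called the mutant from here on, carry a slow-elongating form of RNA polymerase II, per the series title. All cells grew on gelatine without feeder cells, in medium with 10% serum and 1000 U per mL of the cytokine LIF. Day 1 cells had also received 2i, which is 1 uM of the MEK inhibitor PD0325901 and 3 uM of the GSK3 inhibitor CHIR99021, for 1 day. Every mutant library is labelled with the same genotype and no line or clone number, so that effects of the mutation and of the cell line cannot be told apart. The labels do not say whether libraries of a group came from separate cultures, and p-values therefore measure the spread between these libraries, which may be technical.

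As background, mouse embryonic stem cells in serum and LIF are a mixed population that moves between a naive state, like the preimplantation epiblast, and states closer to differentiation. MEK activates ERK, which acts downstream of FGF4 and drives exit from the naive state while inducing its own inhibitors. GSK3 marks beta-catenin for degradation, so that its inhibition raises beta-catenin and relieves the repressor TCF7L1, and both inhibitors together hold cells in the naive state. Since these are bulk libraries, fewer cells of a type and less RNA per cell cannot be told apart anywhere below.

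Depth ranged from 47350441 to 56138844 counts per library, of which 4.89 to 7.13% fell in the top 10 genes. Replicates had a Pearson r across genes, which are not independent, of 0.979 to 0.988 in the mutant and of 0.94 (day 0) and 0.934 (day 1) in WT. WT replicate 1 stood apart at both days. The summed level of 26 fibroblast and stroma markers was 861 CPM (counts scaled to library size) in it at day 0 and 1310 at day 1, against 130 to 194 in the other 7 libraries, and that of 23 trophoblast markers was 738 and 1440 against 112 to 256. Col1a1, a collagen that defines fibroblasts, was at 54.1 and 122 CPM in that replicate and at 0.83 to 2.32 in the rest. Embryonic stem cell markers were present in all 9 libraries, with a summed level of 4840 to 10100 CPM for 24 naive factors and 5880 to 11000 for 13 core factors. Polr2a, which encodes the largest subunit of RNA polymerase II, was at 456 to 729 CPM, and gene counts do not show its mutation.

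After 1 day of 2i, 687 of 15034 genes tested (4.57%) passed the test (edgeR's quasi-likelihood F test, Benjamini-Hochberg adjusted p under 0.05). All 687 had the same sign in WT and in the mutant, 293 higher at day 1 (1.95%) and 394 lower (2.62%), and 474 changed at least 2-fold, of which 194 were higher and 280 lower. The fit has a common effect of day and counts a difference between genotypes as spread. A gene of opposite signs could thus hardly pass. The day 0 and day 1 libraries did not overlap within WT nor within the mutant for 666 of the called genes (96.9%), a pattern that 2340 of all genes showed (15.6%). The median log2 fold change over all genes tested was 0.01. Without WT replicate 1 of both days, 2387 of 15181 genes were called (15.7%), 1060 higher and 1327 lower, including all 687. Leaving out single libraries gave between 135 calls, without mutant day 0 replicate 1, and 1310, without WT day 1 replicate 1, and 125 genes (42 higher and 83 lower) were called in all 9 of those fits.

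**Figure D1:**
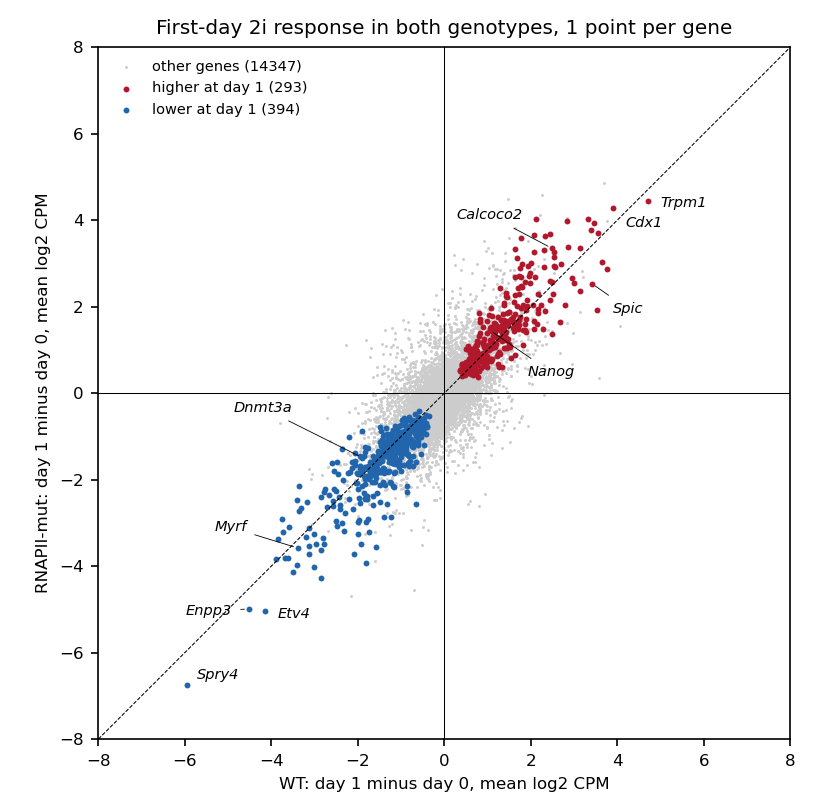
Each point is 1 of 15034 genes, with the difference in mean log2 CPM between day 1 and day 0 in WT (x axis) and in the mutant (y axis). The 293 genes called higher at day 1 (red) lie in the upper right quadrant and the 394 called lower (blue) in the lower left, and the dashed line marks equal change.

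Whether the response differed in size between genotypes was tested with an interaction term. The differences in response gave 0 calls in edgeR, with 76 genes at an unadjusted p under 0.05 and a smallest adjusted p of 1, and 0 calls in DESeq2, with 75 genes at an unadjusted p under 0.05. Among the 687 shared calls, 12 had an unadjusted p under 0.05 for the difference. With these few libraries the intervals were wide: the mutant response minus the WT response of Spry4 was 0.44 on the log2 scale (95% interval -2.67 to 3.54), that of Nanog was 0.38 (-0.47 to 1.24) and that of Cdx1 was 0.51 (-1.01 to 2.02). For Spry4 the changes in mean log2 CPM, -5.96 in WT and -6.76 in the mutant, go against the sign of the fitted difference. Narrower intervals were found for Sparc, a matrix protein gene (0.14, -0.31 to 0.59), and Phc1, a Polycomb gene, which was among the 12 (-0.61, -1.16 to -0.06). Over all genes the WT and mutant changes had a Pearson r of 0.739, as a description over genes that share libraries, and 11432 genes had the same sign in both while 3602 had opposite signs.

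Of 16 feedback inhibitors of ERK signalling tested, 7 fell and 0 rose, against 2.62% and 1.95% of all genes, with a median log2 fold change of -0.86 against 0.01 over all genes. In this paragraph and below, values are CPM in the order of the replicate numbers. Spry4, a Sprouty protein that blocks receptor tyrosine kinase signalling to ERK, was at 105 and 303 in WT and 236 and 275 in the mutant at day 0, and at 2.29 and 3.50 in WT and 0.277, 10.4 and 3.96 in the mutant at day 1. Every day 0 library lay above every day 1 library, and the fall was 59.8-fold (log2 fold change -5.90, SE 0.75, adjusted p = 0.00363). Dusp6, a phosphatase that inactivates ERK in the cytoplasm, was at 104 and 90.7 in WT and 70.1 and 87.2 in the mutant before treatment, and at 19.01 and 10.18 in WT and 3.04, 16.21 and 8.995 in the mutant after it. It was 7.54-fold lower (adjusted p = 0.00475), again with no overlap between days. Both genes kept their call in each of the 9 fits that left out a library.

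The other 5 called inhibitors were Dusp4, Spry1, Spred3, Spred1 and Spry2. Dusp4, a nuclear phosphatase of ERK, went from 94.9 and 46.2 in WT and 52.0 and 71.8 in the mutant to 18.9 and 2.97 in WT and 3.85, 10.0 and 2.56 in the mutant. That is an 8.76-fold fall (adjusted p = 0.0141), with the 4 day 0 libraries above the 5 of day 1. Spry1 went from 30.3 and 21.7 (WT) and 31.4 and 36.2 (mutant) to 12.4 and 8.10 (WT) and 10.3, 15.8 and 12.6 (mutant), which is 2.58-fold lower (adjusted p = 0.00577). All 4 day 0 libraries were above all 5 of day 1. Spred3, a Sprouty-related inhibitor of RAF activation, was 3.398-fold lower (adjusted p = 0.00799), its relative Spred1 fell by 1.31 on the log2 scale (adjusted p = 0.014), and Spry2 was 1.91-fold lower (adjusted p = 0.0456). Spred1 lies outside the naming rule, like Etv1, Phlda1, Wif1, Grhl2, Car4 and Gadd45b below, which were added after their values were seen to complete the counts. Dusp4 lost its call without mutant day 0 replicate 1 (adjusted p = 0.0616) or 2 (0.061). Spry2 lost its call without WT day 0 replicate 2 (0.0824), mutant day 0 replicate 1 (0.166) or 2 (0.15), or mutant day 1 replicate 2 (0.103) or 3 (0.0584). Spred1 kept its call in 7 of the 9 fits, with up to 0.0788 without mutant day 0 replicate 1. Among the 9 inhibitors that did not pass were Spred2 (log2 fold change -0.86, adjusted p = 0.098), Dusp5 (-0.80, 0.302) and Dusp9 (0.16, 0.604). Without mutant day 0 replicate 1, or without replicate 2, fewer of the 16 fell, as did fewer of all genes. Leaving out WT replicate 1 of both days gave more falls among the 16 and among all genes.

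For the 3 ERK genes and 3 Wnt targets with the smallest adjusted p among those whose RefSeq promoter windows were used here, the 250 bases before the start site were read from the RefSeq table (GRCm38.p6). No window of Spry4, Etv4, Cdx1 or Porcn was used. These bases were searched on both strands for the CArG box bound by SRF, the ETS motif CCGGAAGT, the CREB motif TGACGTCA and the TCF/LEF motifs CTTTGAT and CTTTGTT, none of which contains another. The windows of Dusp6 (chr10:99262981-99263230, plus strand) and Spry1 (chr3:37639697-37639946, plus strand) are shown as examples, and neither held a match, nor did that of Spred3. Dusp6, Spry1 and Spred3 were each lower in every day 1 library than in any of day 0.
Dusp6: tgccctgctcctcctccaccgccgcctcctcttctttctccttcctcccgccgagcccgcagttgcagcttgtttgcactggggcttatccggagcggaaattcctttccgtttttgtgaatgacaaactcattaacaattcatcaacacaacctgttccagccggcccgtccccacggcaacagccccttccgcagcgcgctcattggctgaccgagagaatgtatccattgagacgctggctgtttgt
Spry1: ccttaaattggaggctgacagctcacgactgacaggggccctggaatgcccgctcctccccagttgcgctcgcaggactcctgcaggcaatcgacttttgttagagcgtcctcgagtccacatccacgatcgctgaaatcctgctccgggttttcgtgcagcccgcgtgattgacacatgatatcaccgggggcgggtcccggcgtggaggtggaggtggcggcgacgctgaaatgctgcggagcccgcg
Among the 31 genes of the ERK lists with a window, 3 held a CArG box (9.68%) and 3 held TGACGTCA (9.68%), and the other motifs had 0 matches. Over all 11493 tested genes with a window these shares were 1.43% and 2.94%. Of the 9 ERK genes that fell and have a window, 2 held TGACGTCA and 0 a CArG box. A match is a description of these letters and not evidence of binding, and the absence of one says only that they are not in this window.

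Among 28 transcriptional targets of ERK, 7 fell and 0 rose (median log2 fold change -0.25), against 2.62% and 1.95% of all genes. Etv4, an ETS factor of the PEA3 group induced by FGF, was at 109 and 246 in WT and 237 and 204 in the mutant at day 0, and at 4.81 and 17.8 in WT and 2.81, 18.5 and 5.51 in the mutant at day 1. The days did not overlap and the fall was 20.1-fold (SE 0.58 on the log2 scale, adjusted p = 0.00458), a call kept without any single library. Etv1, of the same group, fell by 2.35 on the log2 scale (adjusted p = 0.022). That call was kept in 5 of the 9 fits that left out a library, and was lost without mutant day 0 replicate 1. Etv5, the third member, was at 339 to 523 before and 262 to 458 after treatment (log2 fold change -0.15, adjusted p = 0.661). Its libraries of the 2 days overlapped in both genotypes. Myc, a growth regulator, went from 75.4 and 156 (WT) and 118 and 87.5 (mutant) to 18 and 56 (WT) and 16.97, 36.96 and 46.4 (mutant). It was 3.10-fold lower (adjusted p = 0.0385), with no overlap between days. The Myc call was lost without WT day 0 replicate 2 (adjusted p = 0.081), mutant day 0 replicate 1 (0.155) or 2 (0.0954), or mutant day 1 replicate 1 (0.0757), 2 (0.0816) or 3 (0.0587).

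The other falls were those of Plaur, the urokinase receptor (2.19-fold, adjusted p = 0.0127), Maff, a small MAF factor (2.25-fold, 0.0141), Epha2, an ephrin receptor (1.99-fold, 0.0147), and Phlda1 (log2 fold change -1.68, 0.018). Plaur, Maff and Epha2 each lost the call without mutant day 0 replicate 1 (0.069, 0.0576 and 0.0623) or replicate 2 (0.061, 0.0702 and 0.0638), and Phlda1 passed in 5 of the 9 fits, with up to 0.0893 without mutant day 0 replicate 1. With either of these libraries left out, 1 of the 28 targets fell. The immediate early genes behaved unevenly. Egr1, a zinc finger factor that ERK induces within minutes, was at 77.3 and 30.6 (WT) and 35.6 and 29.9 (mutant) at day 0, and at 181 and 4.52 (WT) and 8.53, 161 and 3.92 (mutant) at day 1. At day 1, 3 libraries were thus below every day 0 library and 2 above, WT replicate 1 and mutant replicate 2, and the gene did not pass (log2 fold change 0.81, SE 1.09, adjusted p = 0.711). Mean log2 CPM was lower at day 1 in both genotypes (-0.76 in WT and -0.89 in the mutant), against the sign of the fit. The same 2 libraries had the highest Fos at day 1, 109 and 27.5 CPM against 1.47 to 2.91 in the others (adjusted p = 0.508). Ccnd1, cyclin D1, was at 154 to 285 before and 155 to 259 after treatment (adjusted p = 0.8).

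**Figure D2:**
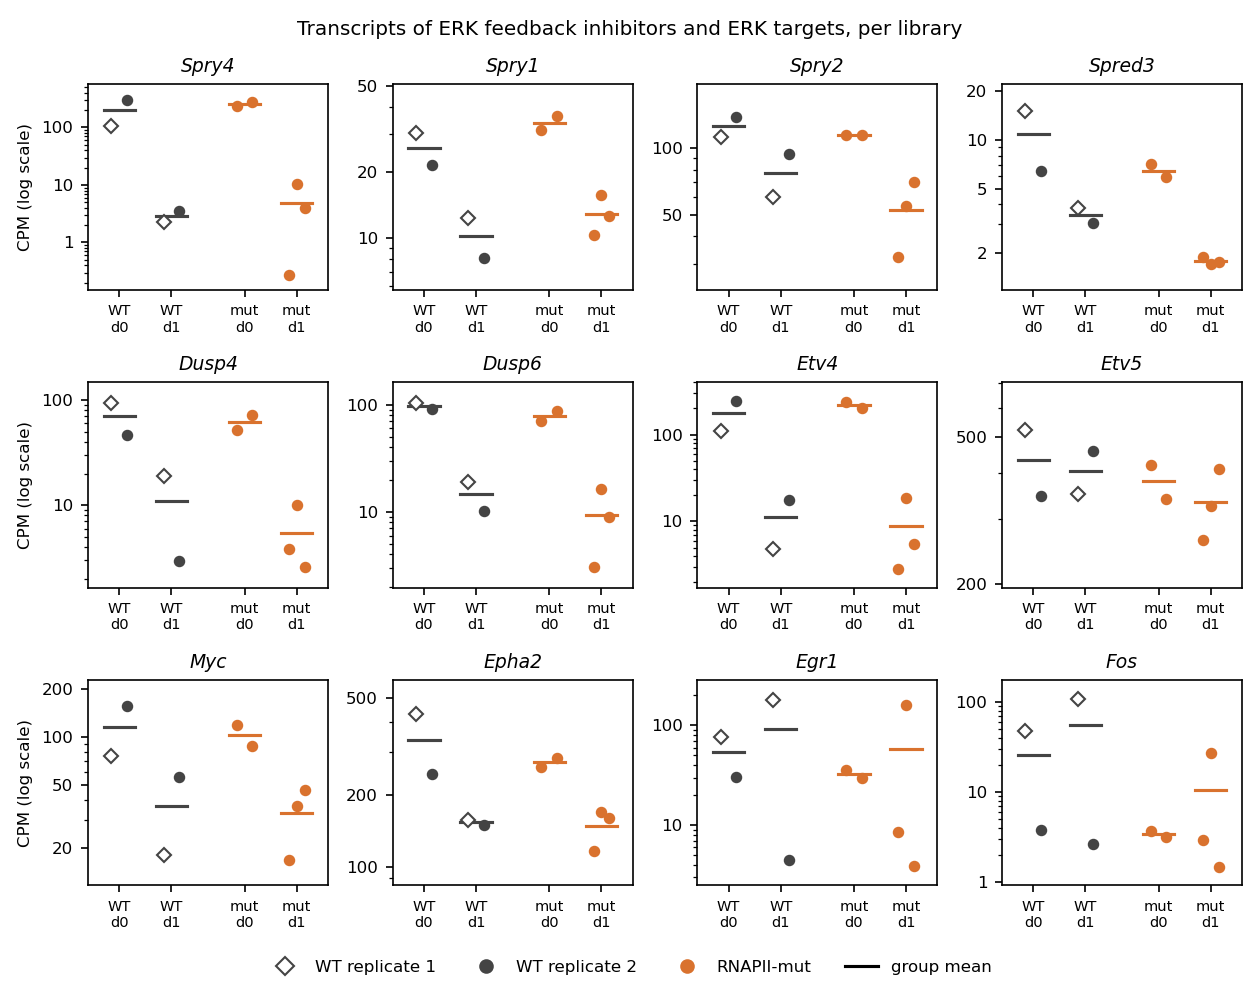
CPM of 12 ERK feedback inhibitors and targets on a log scale, with 1 point per library, WT replicate 1 as open diamonds and group means as lines. Spry4, Dusp6 and Etv4 are lower in all 5 day 1 libraries than in any day 0 library, whereas Egr1 and Fos spread widely at day 1.

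Among FGF ligands and receptors 2 of 16 fell and 0 rose (median log2 fold change -0.16), against 2.62% and 1.95% of all genes. More of the 16 were called in each direction without WT replicate 1 of both days, as were more of all genes. Fgf15, a hormone-like FGF, went from 14.3 and 9.41 (WT) and 20.9 and 19.96 (mutant) to 2.69 and 1.57 (WT) and 6.23, 10.3 and 4.69 (mutant). It was 3.88-fold lower (adjusted p = 0.0106), with WT below the mutant at day 1 and no overlap between days within either. Fgf1 fell 5.26-fold at low levels (adjusted p = 0.0186), and lost the call without mutant day 0 replicate 1 (0.0902) or 2 (0.0688) or mutant day 1 replicate 1 (0.0558) or 3 (0.0584). Fgf4, the main autocrine ligand of embryonic stem cells, did not pass (log2 fold change 0.79, adjusted p = 0.092).

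Targets of Wnt and beta-catenin moved in both directions: of 29 tested, 3 rose and 3 fell, with a median log2 fold change of 0.47. Over all genes 1.95% rose and 2.62% fell. Cdx1, a caudal homeobox gene bound directly by TCF factors, had the largest rise of the genes named. It was at 7.06 and 2.81 in WT and 4.71 and 5.90 in the mutant at day 0, and at 48.5 and 92.8 in WT and 151, 68.7 and 104 in the mutant at day 1. Day 1 libraries were all several times above the highest day 0 library (17.3-fold, SE 0.38 on the log2 scale, adjusted p = 0.00146), and no single library decided the call. Axin2, a scaffold of the complex that degrades beta-catenin and a feedback target of the pathway, went from 44.3 and 24.2 (WT) and 19 and 15.4 (mutant) to 110.5 and 70.5 (WT) and 36.1, 29.5 and 66.5 (mutant). It rose 2.60-fold (adjusted p = 0.0223), with no overlap within a genotype, although the mutant at day 1 overlapped with WT at day 0. Without WT day 0 replicate 2 (0.0508), mutant day 0 replicate 1 (0.0905) or replicate 2 (0.106) Axin2 did not pass. Wif1, a secreted Wnt inhibitor, rose by 1.70 on the log2 scale from 0.182 to 0.468 CPM to 0.600 to 1.45 (adjusted p = 0.043). It passed in 1 of the 9 fits that left out a library, with up to 0.15 without mutant day 0 replicate 2.

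Several targets did not pass with all 9 libraries and had larger changes without WT replicate 1 of both days, among them Sp5, Cdx2, T and Lef1. Without that pair WT has 1 library per day, so that no spread between WT libraries of a day is measured. Cdx2 is also one of the trophoblast markers by whose sum the pair stood apart. Sp5, a zinc finger repressor induced by Wnt, was at 57.3 and 0.947 (WT) and 8.54 and 4.99 (mutant) at day 0, and at 142 and 73.1 (WT) and 108, 64.4 and 161 (mutant) at day 1. Each day 1 library was above all 4 of day 0, yet the gene did not pass (log2 fold change 3.01, adjusted p = 0.109). Without WT replicate 1 of both days its log2 fold change was 4.56. T, the brachyury gene of the primitive streak, was at 113 and 0.203 in WT and 0.521 and 0.255 in the mutant before 2i, and at 91.4 and 6.74 in WT and 10.6, 6.63 and 12.7 in the mutant after it. WT replicate 1 was thus high at both days and the other libraries were higher at day 1. The log2 fold change was 2.04 with all 9 (adjusted p = 0.536) and 4.77 without the pair. Cdx2 had 13.7 CPM in WT day 0 replicate 1 against 0.305 to 0.802 in the other day 0 libraries, and 6.26 to 23.2 at day 1. Its log2 fold change was 2.75 with all 9 (adjusted p = 0.173) and 4.57 without the pair. The fibroblast and trophoblast marker sums were high in the same library pair, and their part in these values was not tested. Without the pair, more of the 29 targets rose and more fell, and without mutant day 0 replicate 1 fewer did. The same held for all genes.

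The 3 targets that fell do not follow the direction of the list's name. Bmp4, a ligand that maintains self-renewal with LIF, went from 52.4 and 143 (WT) and 86.6 and 101 (mutant) to 28.7 and 22.4 (WT) and 24.5, 37.5 and 26.6 (mutant), a 3.45-fold fall (adjusted p = 0.00759). Fzd7, a Wnt receptor of embryonic stem cells, went from 101 and 70.6 (WT) and 91.8 and 98.7 (mutant) to 40.6 and 18.4 (WT) and 24.7, 38.3 and 25.8 (mutant), which is 3.07-fold lower (adjusted p = 0.00708). In both, every day 0 library was above every day 1 library. Porcn, the acyltransferase needed for Wnt secretion, was 1.92-fold lower (adjusted p = 0.0135, and 0.0859 without mutant day 0 replicate 1). Lef1, which encodes a TCF/LEF factor, had a log2 fold change of -1.21 (adjusted p = 0.324), and of -1.48 without WT replicate 1 of both days. The Groucho corepressor gene Tle4 was with all 9 libraries the only 1 of 19 pathway components to fall (2.14-fold, adjusted p = 0.0184), with 0 that rose. Of all genes, 2.62% fell and 1.95% rose. Tle4 did not pass without mutant day 0 replicate 1.

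The windows of Axin2 (chr11:108920099-108920348, plus strand), which rose, and Fzd7 (chr1:59481897-59482146, plus strand), which fell, set a target of each direction side by side. Fzd7 held CTTTGTT on the reverse strand, from 130 to 124 bases before the start, and its complement is in capitals. That RefSeq start lies before the gene's start in GENCODE M21. Axin2 held no match, and neither did Bmp4.
Axin2: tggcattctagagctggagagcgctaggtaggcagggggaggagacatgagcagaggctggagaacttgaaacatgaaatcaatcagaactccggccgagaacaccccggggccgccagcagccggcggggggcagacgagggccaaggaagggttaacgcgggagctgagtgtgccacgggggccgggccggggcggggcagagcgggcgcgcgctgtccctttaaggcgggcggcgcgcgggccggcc
Fzd7: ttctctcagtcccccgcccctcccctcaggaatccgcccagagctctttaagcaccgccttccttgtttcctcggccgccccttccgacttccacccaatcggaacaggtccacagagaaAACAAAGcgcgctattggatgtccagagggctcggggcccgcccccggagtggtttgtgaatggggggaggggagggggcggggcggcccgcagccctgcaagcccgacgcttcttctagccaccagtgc
Of the 19 Wnt targets with a window, 4 held CTTTGTT (21.1%) and 2 held CTTTGAT (10.5%), against 4.35% and 2.91% of all tested genes with a window. Among the called genes, CTTTGTT was found in 12 of 215 higher at day 1 (5.58%) and 11 of 280 lower (3.93%), and CTTTGAT in 11 (5.12%) and 6 (2.14%). CCGGAAGT was found in 2.79% of the higher and 2.14% of the lower genes, against 5.89% of all.

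**Figure D3:**
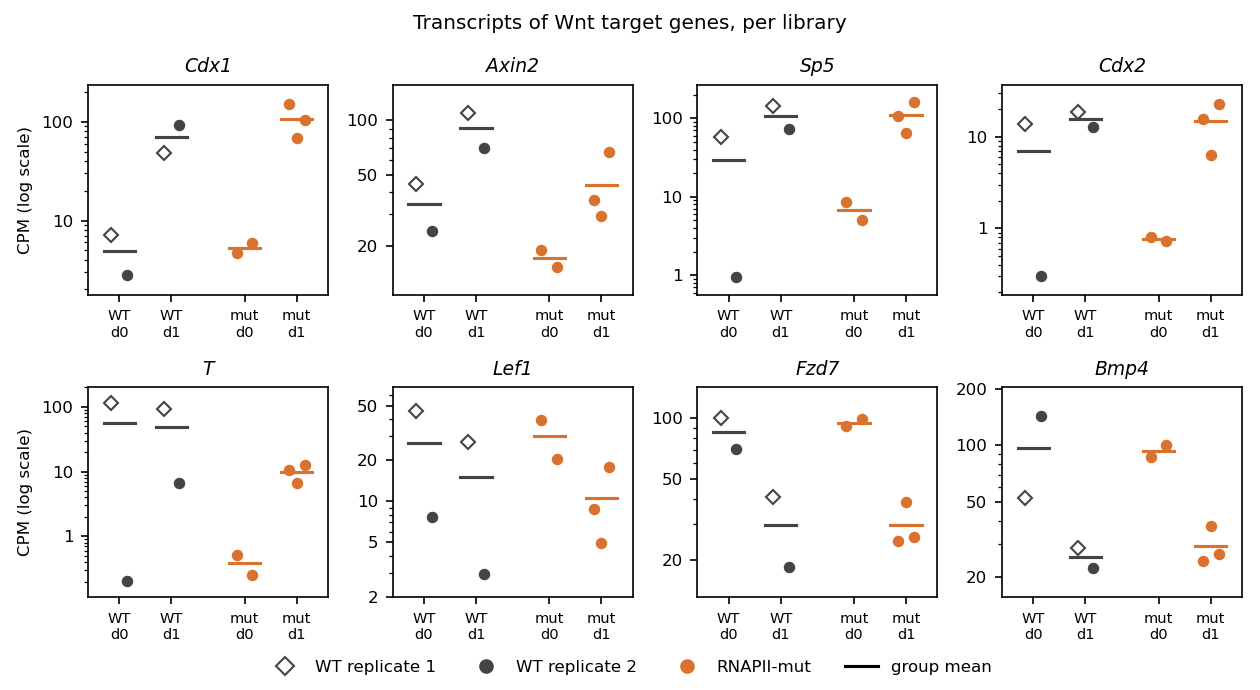
CPM of 8 Wnt targets on a log scale, with 1 point per library, WT replicate 1 as open diamonds and group means as lines. Cdx1 and Axin2 are higher at day 1 within each genotype, Fzd7 and Bmp4 lower, and WT replicate 1 holds 57.3, 13.7 and 113 CPM of Sp5, Cdx2 and T before 2i.

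Naive pluripotency factors split, with 3 of 24 higher, 1 lower and 20 that did not pass (median log2 fold change 0.27). Over all genes 1.95% were higher and 2.62% lower. Nanog, a homeobox factor of the naive network, was at 282 and 351 in WT and 280 and 213 in the mutant at day 0, and at 514 and 821 in WT and 537, 695 and 803 in the mutant at day 1. It was 2.44-fold higher (SE 0.19 on the log2 scale, adjusted p = 0.00774), the 5 day 1 libraries lay above the 4 of day 0, and the call held without any single library. Tfcp2l1, a factor downstream of LIF and of GSK3 inhibition, went from 244 and 308 (WT) and 261 and 365 (mutant) to 557 and 1002 (WT) and 668, 625 and 950 (mutant). That 2.58-fold rise (adjusted p = 0.00851) also had no overlap, and its adjusted p was 0.0503 without mutant day 0 replicate 1. Prdm14, which represses FGF receptor and de novo methyltransferase genes, went from 13.3 and 19.5 (WT) and 23.7 and 22.5 (mutant) to 28.3 and 64.5 (WT) and 38.8, 46.7 and 59.3 (mutant). It rose 2.397-fold (adjusted p = 0.0223) and did not pass without mutant day 0 replicate 1 (0.0859) or 2 (0.0827) or mutant day 1 replicate 3 (0.0625).

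The remaining naive factors differed from these. Dppa4, which binds chromatin together with Dppa2, fell 2.08-fold, from 131 and 162 (WT) and 271 and 218 (mutant) to 73.7 and 75.4 (WT) and 104, 129 and 104 (mutant), with adjusted p = 0.00294. WT was lower than the mutant at each day, and the days were apart within each. Klf2 was higher at day 1 without overlap in either genotype but did not pass (log2 fold change 0.63, adjusted p = 0.123), and Klf5 was lower in the same way (-0.98, 0.0683). Without WT replicate 1 of both days these log2 fold changes were 0.63 and -1.08. Klf4 (0.44, 0.265), Esrrb (0.30, 0.445) and Tbx3 (0.86, 0.312) had overlapping days and did not pass. Zfp42, the Rex1 gene, was at 491 to 894 before and 440 to 919 after treatment (adjusted p = 0.893). Dppa3 was at 1.56 to 11.2 and 6.36 to 17.9 (log2 fold change 1.23, adjusted p = 0.189). Its log2 fold change was 1.65 without WT replicate 1 of both days. Without that pair, more of the 24 rose and more fell, as did more of all genes. Fewer of the 24 rose without mutant day 0 replicate 1.

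Among 13 core pluripotency factors 0 rose and 3 fell, against 1.95% and 2.62% of all genes. Utf1, a chromatin factor of undifferentiated cells, went from 301 and 511 (WT) and 591 and 478 (mutant) to 45.2 and 39.9 (WT) and 31.3, 109 and 43.0 (mutant). No day 1 library came near the day 0 range, and the fall was 9.11-fold (adjusted p = 0.00294). L1td1, an RNA-binding protein, was 1.83-fold lower (adjusted p = 0.0484) and kept its call in 2 of the 9 fits that left out a library, those without WT day 0 replicate 1 or WT day 1 replicate 1, with a highest adjusted p of 0.166 without mutant day 0 replicate 1. Pou5f1 (Oct4) was at 1342 to 1891 before and 947 to 2426 after 2i, and Sox2 at 444 to 531 and 344 to 575. These ranges overlapped in both genotypes (adjusted p = 0.908 and 0.799).

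Of 21 genes of the formative and primed states, 7 fell, against 2.62% of all genes, and 0 rose, with a median log2 fold change of -0.76. Otx2, a homeobox factor of the postimplantation epiblast, went from 36.1 and 14.1 in WT and 43.0 and 40.7 in the mutant to 3.24 and 2.91 in WT and 1.66, 5.44 and 4.19 in the mutant. All 5 day 1 libraries were below the lowest of day 0 (9.66-fold, adjusted p = 0.00294). Pou3f1 (Oct6), which acts with Otx2, went from 55.8 and 8.51 (WT) and 22.9 and 20.3 (mutant) to 6.15 and 2.397 (WT) and 2.398, 2.472 and 2.68 (mutant), an 8.07-fold fall (adjusted p = 0.00875). WT replicate 1 was the highest library at each day. Grhl2, an epithelial factor, fell by 1.80 on the log2 scale (adjusted p = 0.018) and Car4, a carbonic anhydrase, by 2.68 (0.011), while the others were Fgf15, above, and both de novo methyltransferases. Grhl2 passed in 5 of the 9 fits that left out a library, with up to 0.093 without mutant day 0 replicate 1. Fgf5, the usual marker of the primed epiblast, was at 16.9 and 0.305 (WT) and 2.00 and 1.99 (mutant) before treatment and at 0.0775 to 0.672 after it. Its WT libraries overlapped between days, and it did not pass with all libraries (log2 fold change -3.72, adjusted p = 0.0679). The log2 fold change was -2.815 without WT replicate 1 of both days. Without that pair more of the 21 genes fell and a rise was called as well, and more of all genes were called in both directions.

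The 3 de novo DNA methylation genes fell, and 4 of 17 genes of DNA methylation and demethylation were lower with 1 higher (median log2 fold change -0.10). Over all genes 2.62% were lower and 1.95% higher. Dnmt3a went from 179 and 186 (WT) and 179 and 105 (mutant) to 61.8 and 38.7 (WT) and 41.7, 53.3 and 52.1 (mutant). Dnmt3b went from 558 and 275 (WT) and 344 and 190 (mutant) to 159 and 107 (WT) and 47.7, 81.2 and 109 (mutant). Dnmt3l, the catalytically inactive partner of both enzymes, went from 327 and 1028 (WT) and 433 and 274 (mutant) to 120 and 241 (WT) and 84.5, 130 and 98.5 (mutant). For each of them the day 0 and day 1 libraries were apart over all 9, and they were 3.21-fold (adjusted p = 0.00294), 3.26-fold (0.0127) and 3.55-fold (0.0148) lower. Without mutant day 0 replicate 1, Dnmt3b (0.0775) and Dnmt3l (0.0796) did not pass. Gadd45a, a stress-induced gene linked to demethylation, was 3.25-fold lower (adjusted p = 0.00294), whereas its relative Gadd45b rose by 1.18 on the log2 scale (0.028), a call kept in 5 of the 9 fits, with up to 0.142 without mutant day 0 replicate 1. Genes of maintenance methylation and oxidation did not pass: Dnmt1 (log2 fold change -0.10, adjusted p = 0.684), its recruiter Uhrf1 (0.13, 0.787), and the dioxygenases Tet1 (-0.81, 0.085) and Tet2 (0.23, 0.716).

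**Figure D4:**
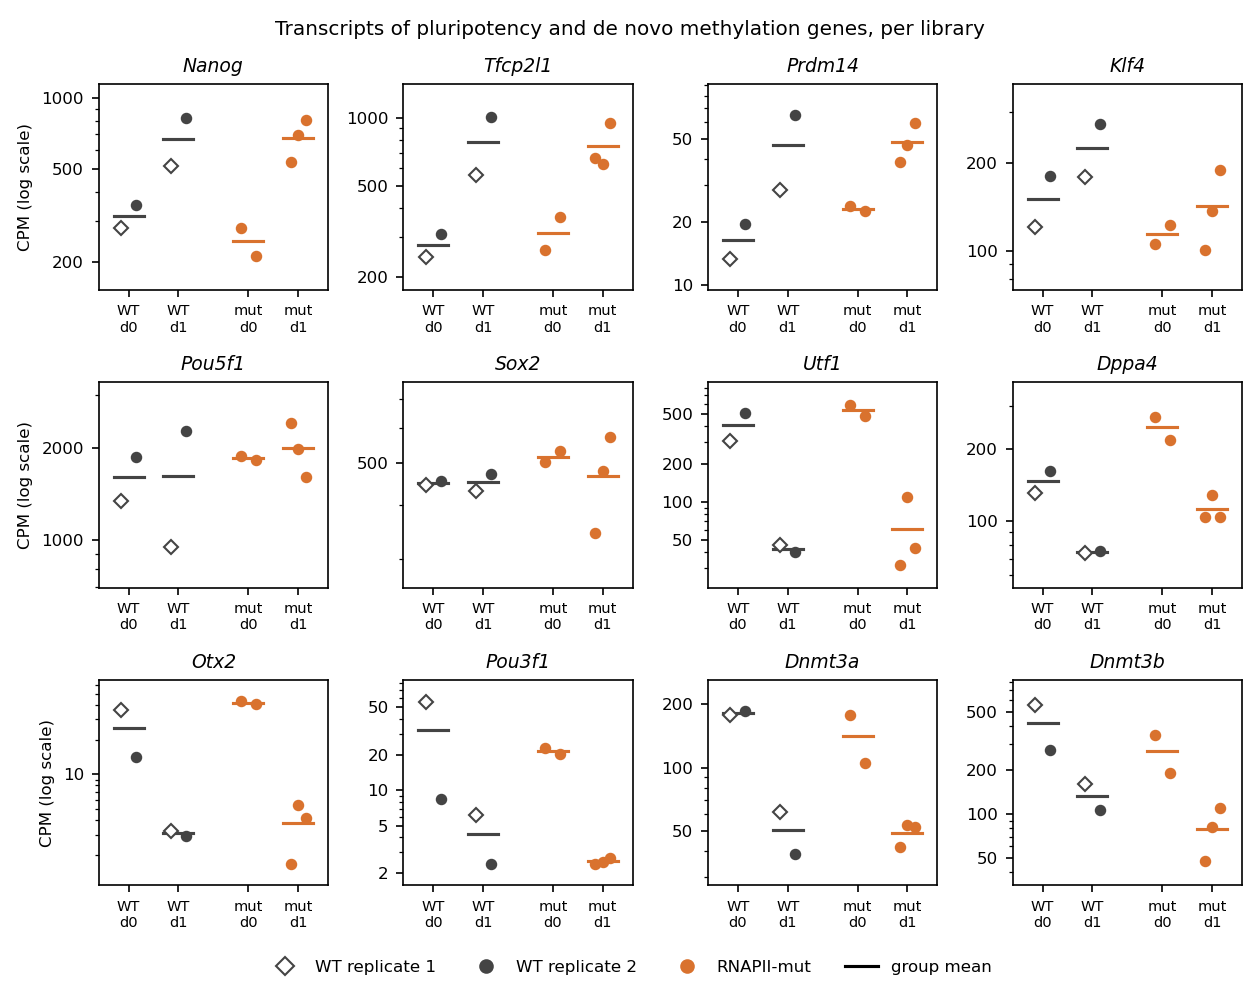
CPM of 12 pluripotency, formative and methylation genes on a log scale, with 1 point per library, WT replicate 1 as open diamonds and group means as lines. Nanog, Tfcp2l1 and Prdm14 are higher at day 1 in each genotype, Utf1, Dppa4, Otx2, Pou3f1, Dnmt3a and Dnmt3b are lower, and Klf4, Pou5f1 and Sox2 overlap between days.

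Beyond the lists, the genes with the largest changes were named among 485 called genes whose mean reached 5 CPM at the higher day in each genotype and whose days did not overlap, 203 of them higher and 282 lower. After Cdx1, the largest rise was that of Trpm1, a cation channel of melanocytes and retinal bipolar cells (chr7:64153835-64269775, mm10). It went from 10.3 and 0.947 in WT and 1.60 and 6.63 in the mutant to 75.3 and 93.0 in WT and 130 (replicate 1), 56.2 and 50.6 in the mutant. The gap between days was wide, and the 17.04-fold rise passed (adjusted p = 0.0123) except without mutant day 0 replicate 1 (0.0561). Calcoco2, an autophagy receptor also called NDP52, was at 21.3 and 30.6 (WT) and 14.5 and 11.8 (mutant) before and 75.3 and 270.2 (WT) and 136, 130.3 and 135 (mutant) after. No library of day 1 came near those of day 0, and the gene was 8.36-fold higher (adjusted p = 0.00294). Spic, an ETS family factor, was 8.17-fold higher (0.00708), S100a13, a small calcium-binding protein, 15.4-fold (0.0074), Cidea, a lipid droplet protein, 14.8-fold (0.00603), and Serpinb1a, a protease inhibitor, 11.2-fold (0.0037).

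Other large rises came from metabolism and signalling genes. Dmgdh, the mitochondrial dimethylglycine dehydrogenase, went from 5.52 and 6.24 (WT) and 0.842 and 0.947 (mutant) to 17.5 and 35.4 (WT) and 15.6, 8.41 and 12.4 (mutant), 7.89-fold (adjusted p = 0.00449). WT levels were higher than those of the mutant before treatment. Slc16a9, of the monocarboxylate transporter family, rose 7.72-fold (0.00294), the acyl-CoA synthetase Acsm4 9.65-fold (0.0152), the pepsinogen Pga5 5.99-fold (0.00759), the sphingosine 1-phosphate receptor S1pr1 6.10-fold (0.0161), the calcium buffer Calb2 6.89-fold (0.00799), the membrane protein gene Lrrc15 7.15-fold (0.00181) and the myosin heavy chain gene Myh13 7.89-fold (0.00304). Acsm4 did not pass without WT day 1 replicate 2 (0.0521) or mutant day 0 replicate 1 (0.0849) or 2 (0.0559), and S1pr1 not without mutant day 0 replicate 1 (0.0895) or 2 (0.0827). All of these were in separate ranges at the 2 days within each genotype, as the rule for naming them requires.

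The largest falls outside the ERK, pluripotency and formative lists were led by Enpp3, an ectonucleotidase (chr10:24772406-24842823, mm10). It went from 43.4 and 38.4 in WT and 71.6 and 58.8 in the mutant to 2.82 and 1.06 in WT and 0.969, 4.37 and 1.88 in the mutant. Each day 1 library was far below those of day 0, and the fall was 24.1-fold (adjusted p = 0.00146). Myrf, a membrane-bound transcription factor that drives myelin genes, had the smallest adjusted p of the genes named (0.00038), with 65.4 and 117 (WT) and 93.1 and 56.3 (mutant) before and 9.78 and 7.00 (WT) and 4.98, 6.63 and 6.59 (mutant) after, 11.6-fold lower. The lowest day 0 library, at 56.3, was above the highest of day 1, at 9.78. Robo4, a receptor of vascular guidance, was 15.3-fold lower (0.009), the matrix gene Sned1 7.44-fold (0.00449), the transglutaminase Tgm3 7.03-fold (0.0134), the exocyst-related Exoc3l 7.01-fold (0.0107), the RAS exchange factor Kndc1 6.96-fold (0.0063) and the collagen chain Col6a5 6.56-fold (0.00294). Without mutant day 0 replicate 1, Tgm3 (0.0746) and Exoc3l (0.0552) did not pass.

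Among regulators of growth and the cell cycle, 1 of 22 G1 genes rose and 2 fell, where 1.95% and 2.62% of all genes did. More G1 genes fell without WT replicate 1 of both days, as did more of all genes, while no more of them rose. Cdkn1a, the p21 inhibitor of cyclin-dependent kinases and a p53 target, went from 116 and 52.3 in WT and 51.2 and 67.4 in the mutant to 255 and 229.5 in WT and 292, 169.5 and 181 in the mutant. It was 3.26-fold higher (adjusted p = 0.00797) with no overlap, and 1 of 20 p53 targets rose with 0 that fell. E2f2, an S phase factor, was 3.41-fold lower (0.0148) and Ccne1, cyclin E1, 1.59-fold lower (0.0207). Without mutant day 0 replicate 1, E2f2 (0.0665) and Ccne1 (0.108) did not pass, nor did E2f2 without replicate 2 (0.0638). Of 36 replication, 25 mitosis and 30 MYC target genes, 0 passed in either direction, with medians of 0.09, -0.08 and 0.08.

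In each metabolic and housekeeping list at most 1 gene passed with all 9 libraries, where 1.95% of all genes rose and 2.62% fell. Pdk1, the kinase that inhibits pyruvate dehydrogenase, went from 253 and 292 (WT) and 399 and 373 (mutant) to 85.7 and 56.2 (WT) and 39.9, 109 and 83.7 (mutant), and was 4.43-fold lower (adjusted p = 0.00304). Of 26 glycolysis genes it alone passed. More of them were called in both directions without WT replicate 1 of both days, as were more of all genes. For oxidative phosphorylation all 37 genes had a positive log2 fold change (median 0.36) and 1 passed, Atp5c1 of the ATP synthase (1.497-fold, 0.039). For cytosolic ribosomal proteins 42 of 43 were positive (median 0.38) and 0 passed. With DESeq2 and all 9 libraries, 7 oxidative phosphorylation, 1 ribosomal protein and 7 lysosome and autophagy genes rose, where 803 of 15031 genes were called higher. More genes of each of these lists also rose without WT replicate 1 of both days, as did more of all genes. Asns, the asparagine synthetase, rose 2.05-fold (0.0443) as 1 of 24 ATF4 targets, and Npc2, which exports cholesterol from lysosomes, 2.16-fold (0.0223) as 1 of 28 lysosome and autophagy genes. Atp5c1 and Asns each kept the call in 2 of the 9 fits that left out a library (highest adjusted p 0.145 without mutant day 0 replicate 2 and 0.176 without replicate 1), and Npc2 in 5 (0.101 without mutant day 0 replicate 1). With all 9 libraries, lists with 0 calls were also those of cholesterol synthesis (25 genes), heat shock (20), cytoskeleton and SRF targets (26), 2-cell-like genes (17), imprinted genes (20) and the Nodal pathway (17).

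Polycomb genes gave 4 falls among 22, with 0 that rose (median log2 fold change -0.03), where 2.62% of all genes fell and 1.95% rose. Jarid2, a cofactor of the PRC2 complex, went from 450.2 and 760.4 (WT) and 646 and 511 (mutant) to 181 and 223 (WT) and 142, 245 and 257 (mutant). The 2.83-fold fall (adjusted p = 0.00582) left no overlap between days. Phf19, another PRC2 cofactor, was 3.71-fold lower (0.0162), Phc1 of PRC1 1.92-fold (0.00851) and Kdm2b, which recruits a PRC1 variant to CpG islands, 1.79-fold (0.0121). Phf19 did not pass without mutant day 0 replicate 2 (0.0721), and Kdm2b not without replicate 1 (0.0625) or 2 (0.0569). The catalytic PRC2 subunit gene Ezh2 did not pass (log2 fold change -0.16, adjusted p = 0.409). Of 36 genes of RNA polymerase II and its elongation 2 fell by small amounts, the histone chaperone gene Supt6 (1.44-fold, 0.0275) and the elongation factor gene Tcea3 (1.42-fold, 0.042). Supt6 kept its call in 4 and Tcea3 in 2 of the 9 fits that left out a library, with highest values of 0.146 and 0.206 without mutant day 0 replicate 1.

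In other signalling lists few genes passed, where 1.95% of all genes rose and 2.62% fell. Socs2, a feedback inhibitor of cytokine receptors, was the only 1 of 17 LIF pathway genes called (1.61-fold lower, adjusted p = 0.0498). It lost the call in most of the 9 fits that left out a library. Without WT replicate 1 of both days more LIF pathway genes passed, as did more of all genes. In the BMP list 2 of 18 rose, the inhibitory Id4 (2.66-fold, 0.0141) and the homeobox gene Msx2 (4.49-fold, 0.0186), and Bmp4 fell. Without mutant day 0 replicate 1 Id4 (0.0794) and Msx2 (0.0895) did not pass, nor did Msx2 without replicate 2 (0.0865). In the Notch list the DNA-binding effector Rbpj was 2.12-fold lower (0.0184) and its target Hes1 1.63-fold higher (0.0364). Rbpj did not pass without mutant day 0 replicate 1 (0.0862) or 2 (0.061), and Hes1 passed in 2 of the 9 fits, with up to 0.167 without mutant day 0 replicate 1. Itga6, an integrin chain, fell 1.81-fold (0.0162), Bst2, a virus-tethering protein, 2.398-fold (0.0218) and Piwil2, a piRNA protein, 3.09-fold (0.0473), each as the only called member of its list with all 9 libraries. Without WT replicate 1 of both days, further adhesion, interferon-stimulated and germline genes were called in both directions, as were more of all genes. The calls of Itga6, Bst2 and Piwil2 held in 7, 4 and 1 of the 9 fits, with highest values of 0.0833 without mutant day 0 replicate 2 for Itga6, and of 0.0872 and 0.164 without replicate 1 for Bst2 and Piwil2.

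**Figure D5:**
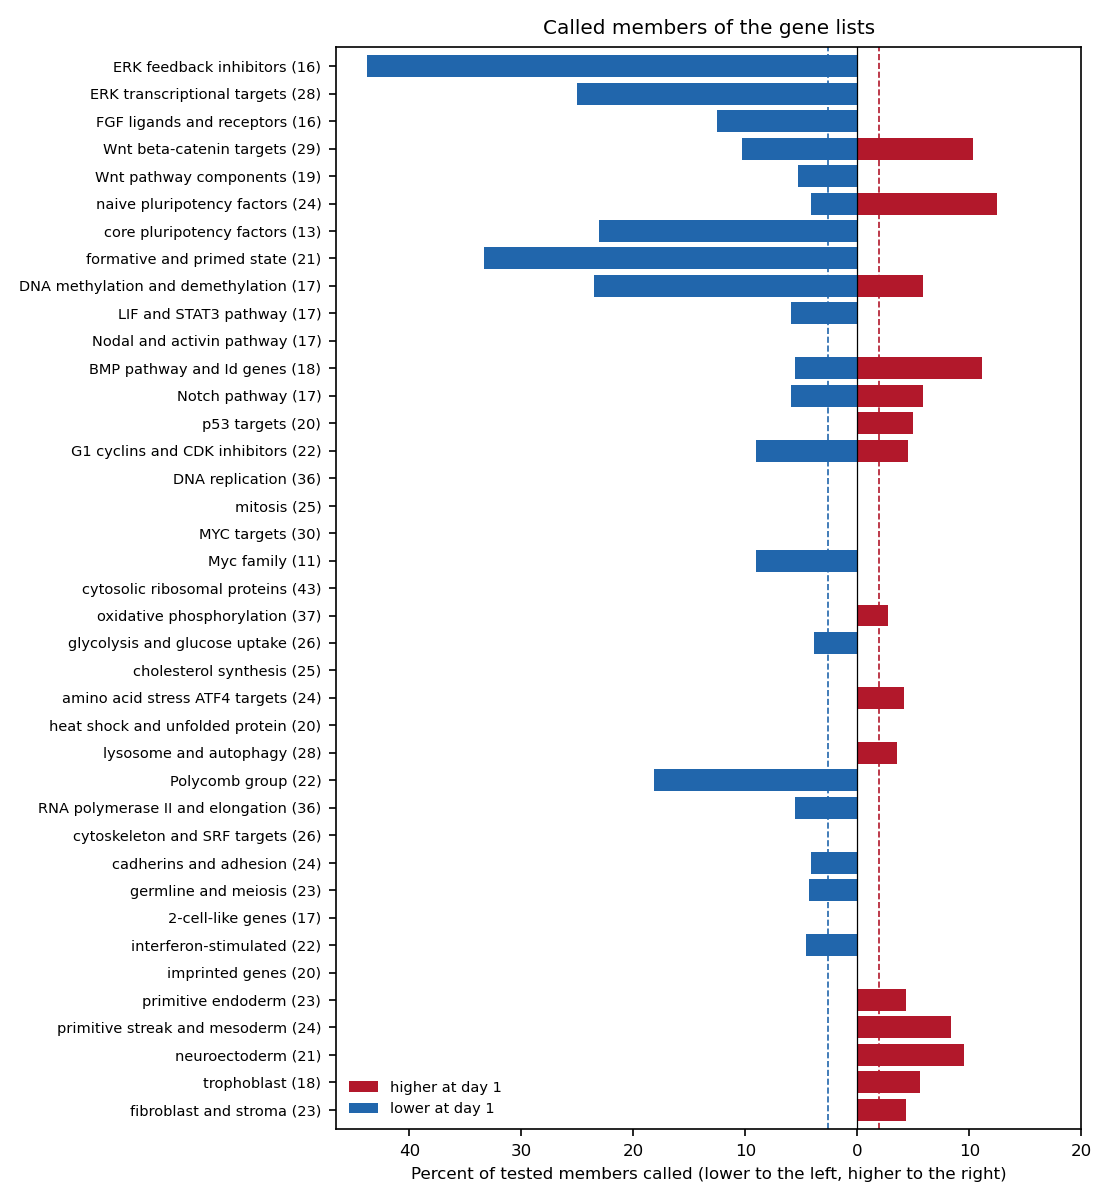
Share of tested members of each of the 39 gene lists called lower (left, blue) or higher (right, red) at day 1, with the number tested in parentheses. Dashed lines are the shares over all genes, 2.62% lower and 1.95% higher, and the longest bars are those of ERK feedback inhibitors and of the formative and primed state, both lower.

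Calls among markers of other lineages, stroma included, depended on WT replicate 1, as did calls among all genes. Without it at both days, more primitive streak and mesoderm, neuroectoderm, trophoblast and primitive endoderm markers were called in each direction. The same held for all genes. With all 9 libraries, 1.95% of all genes were higher and 2.62% lower. With all 9 libraries, of 24 primitive streak and mesoderm genes 2 rose, Cdx1 and the organiser gene Gsc, which went from 0.237 to 1.14 CPM at day 0 to 1.82 to 4.08 at day 1 (4.79-fold, adjusted p = 0.0365). Their summed level was 33.5 and 32.3 CPM in the mutant at day 0 and 213, 121 and 175 at day 1, and 249 and 63 in WT at day 0 and 255 and 160 at day 1. It thus differed between days without overlap in the mutant and overlapped in WT, and Cdx1 is part of that sum. The sum of the neuroectoderm markers behaved alike, with 420 and 403 in the mutant at day 0 and 691, 706 and 802 at day 1. In WT it was 594 and 487 and then 592 and 825. Much of that sum is Tubb3, at 161 and 174 CPM in the mutant at day 0 and 363, 389 and 400 at day 1. Its WT values were 72.4 and 125 and then 117 and 358. The trophoblast sum also differed between days without overlap in the mutant, at 112 and 135 and then 200, 199 and 184. It overlapped in WT, at 738 and 179 and then 1440 and 256. The part of streak, neural or trophoblast cells in the shared response was not tested. Of 21 neuroectoderm genes 2 rose: Tubb3, a neuronal tubulin, 2.34-fold (0.0404), with overlap in WT, and Neurog1 at no more than 1.16 CPM (0.0431). The defining neural genes Sox1 (0.636 to 8.27 CPM over the 9 libraries) and Pax6 (1.02 to 13.6) did not pass (adjusted p = 0.61 and 0.128). In the same fit Gata2 was the only trophoblast marker to rise (2.45-fold, 0.0137), Sparc the only primitive endoderm marker (1.43-fold, 0.0152) and Timp1, a metalloprotease inhibitor, the only stroma marker (1.89-fold, 0.04), while 4 trophoblast markers rose without WT day 0 replicate 1 alone. Gata2 and Sparc did not pass without mutant day 0 replicate 1 (0.0775 and 0.0862), nor Sparc without replicate 2 (0.0738). Gsc, Tubb3 and Timp1 passed in 2 and Neurog1 in 1 of the 9 fits, with highest values of 0.158, 0.157 and 0.164 without mutant day 0 replicate 1, and of 0.146 without replicate 2. Gata6, which defines primitive endoderm, was at 28.2 and 8.53 CPM in WT replicate 2 at days 0 and 1 and at 0.401 to 1.65 in the other libraries.

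The day 2 and day 7 libraries did not enter the rule and show where the levels went, with the day 0 libraries in common and hence no test. Mean Spry4 was 1.14 CPM in WT and 1.44 in the mutant at day 2, and 1.17 and 1.19 at day 7, on the side of day 1. Nanog stayed high, at 776 and 701 at day 2 and 717 and 752 at day 7. Tfcp2l1 went on to 1005 and 1105 and then 1147 and 1609, and Dnmt3l to 132 and 35.3 and then 128 and 15.7. Not every gene kept its day 1 level. Tubb3 was at 94.5 and 240 at day 2 and 34.2 and 105 at day 7, against 98.9 and 168 at day 0, and Otx2 was at 8.90 and 9.33 at day 7, above its day 1 means. Klf4, which overlapped between days 0 and 1, reached 452 in WT and 483 in the mutant at day 7.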

How the data were processed

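Total RNA was sequenced in the 17 libraries of the series, and the deposited table gives raw gene counts per library by gene symbol. STAR, deepTools and the mm10 assembly are named in the submitters' processing notes, with no version. The counting tool, its annotation and its strand setting are not given in the sources used here, so that reads of overlapping antisense genes cannot be told apart. All 17 sample columns were matched by name to a library, and 0 were left unused.

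The 9 libraries of days 0 and 1 were fitted with edgeR 4.0.16 in R 4.3.3. After filterByExpr on the 4 groups, which kept 15034 of 20621 genes, and TMM scaling, the quasi-likelihood F test of day was run with genotype as an added term, on 6 residual degrees of freedom and with a common BCV of 0.324. Calls are two-sided and required an adjusted p (Benjamini-Hochberg, over all genes tested) under 0.05, and every adjusted p printed is of this kind unless DESeq2 is named. The difference in response was tested as an interaction term, with 95% intervals. CPM use TMM-scaled library sizes. Fold changes come from the fit, and means of log2 CPM from a prior count of 2. The procedure was tested on simulated data.

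Genes were named by a rule: the 15 largest rises and 15 largest falls among called genes of at least 5 CPM whose days did not overlap within either genotype, predicted genes left out, up to 4 called members of each of 39 gene lists, and a set of genes given whether or not they passed. The members, the lists and the rule were chosen with earlier results of these data known. Some called list members are not reported here. Of the 15034 symbols tested, 14669 were found in GENCODE M21, which gave gene positions. Promoter windows came from RefSeq (GRCm38.p6) and matched 11493 genes by symbol. Alternatives were DESeq2 1.42.0, RLE and upper quartile scaling, no filter and a stricter one, a fit of all 17 libraries, a replicate block, counts thinned to equal totals, the mean of both genotypes' differences, leaving out each library, and leaving out WT replicate 1 of both days.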

Additional observations from a re-analysis of the deposited data

How the results depend on the processing

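The count of 687 shared calls stayed within 1.5 times under RLE (685) and upper quartile scaling (677), without a filter (680), with a stricter one (719), with all 17 libraries (747, of which 584 were among the 687) and after thinning (687, of which 668 were). It was 1709 with DESeq2, 448 with the mean of both genotypes' differences, and 2387 without WT replicate 1 of both days. Leaving out single libraries gave 135 to 1310, with 749 and 497 without WT day 0 replicates 1 and 2, 1310 and 472 without those of WT day 1, 135 and 198 without those of mutant day 0, and 377, 403 and 356 without those of mutant day 1. A group left with 1 library was assumed to vary like the others. Same-numbered libraries deviated together in WT (r = 0.758) but not in the mutant (-0.153 and -0.094), so that no pairing by number was taken for both genotypes. The replicate block gave 2540 shared calls and 1 call for the difference in response (Alb, log2 difference -10.25, adjusted p = 0.0265), which had 0 otherwise, and it turned Egr1 to -0.25. Of 1538 refits of the 81 called genes named, 1364 kept the call, 174 lost it and 0 changed sign. Signs changed only in genes that were not called: without WT replicate 1 of both days Egr1 was at -0.12, and leaving out single libraries or that pair gave log2 fold changes of -0.78 to 1.17 for Egr1, -0.19 to 0.24 for Pou5f1, -0.24 to 0.10 for Zfp42, -0.14 to 0.26 for Uhrf1, -0.16 to 0.018 for Sox2, -0.00762 to 0.36 for Ccnd1 and -0.10 to 0.10 for Actb. The causes were not tested.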
